A study of Mus musculus with 2 samples.

Results

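BMP receptors and the SMAD proteins that carry their signal were followed through 9 genes, 4 type I receptors (Bmpr1a, Bmpr1b, Acvr1, Acvrl1), 1 type II receptor (Bmpr2), 3 BMP-activated SMADs (Smad1, Smad5, Smad9) and the common SMAD, Smad4. They were chosen by name and matched to NCBI gene numbers, and all 9 were found among the 41709 entries of the count table. The study sequenced polyadenylated RNA of whole C57BL/6 mouse lung at stage E14.5, with 1 library labelled Prmt5 knockdown and 1 control library from wild-type lungs. Each library pooled 7 lungs. Shh stands beside Prmt5 in the title of the knockdown sample, and neither the kind of alteration nor the cells that carry it are given in the labels. With 1 library per group no difference has a replicate check, and no p-value can be given.

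BMP ligands bind a complex of type I and type II receptor kinases, in which the type II receptor phosphorylates the type I receptor. The activated type I receptor phosphorylates SMAD1, SMAD5 and SMAD9 (also called SMAD8), which join SMAD4, enter the nucleus and regulate genes such as the ID family. In the developing lung BMP signalling acts in epithelium, mesenchyme and blood vessels, and Acvrl1 is known mainly as the endothelial receptor for BMP9 and BMP10.

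The knockdown library held 25829281 counted reads and the control library 22581490. Genes with 50 or more reads in either library were taken as measured, which holds for 14569 genes and for all 9 members. Ratios are Prmt5 knockdown over control, scaled by the trimmed mean of M values, with an exact 95% interval that covers counting error only. A gene passed the rule of size when its ratio was at least 1.5, or the inverse, and the interval excluded 1. Prmt5 itself had 2127 reads in the knockdown and 2704 in the control library (log2 ratio -0.43, interval -0.51 to -0.35), which did not pass the rule. The part of Prmt5 that was altered is not given in the labels, so this count over the whole gene is a weak check of them. Shh, the epithelial hedgehog ligand, had 109 reads in the knockdown and 1124 in the control library (log2 ratio -3.44, interval -3.75 to -3.17).

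Of the 9 receptor and SMAD genes 4 were lower in the knockdown library past the rule, Acvrl1, Bmpr1b, Smad5 and Smad9, and none was higher. Of all measured genes 12.3% passed as lower and 20.7% as higher. At a ratio of 2 no member passed in either direction, where 4.83% of all measured genes were lower and 14.0% higher. At a log2 ratio of 0.32 in place of 0.58, 7 members were lower and 1, Acvr1, was higher, beside 24.4% and 28.2% of all measured genes. The members' median log2 ratio was -0.43, and that of all measured genes was -0.01. Of the other 5 members, Bmpr2, Smad1 and Smad4 had intervals below 0 without reaching the rule, the interval of Bmpr1a included 0 and that of Acvr1 lay above 0. Beside these counts, transcripts that mark other organs and cell types differed between the 2 libraries. All 10 liver markers and all 10 heart markers were higher in the knockdown library, with summed levels of 5897 FPKM in the knockdown and 35.3 FPKM in the control library for liver and 3700 and 103 FPKM for heart, and none of these markers was at 0 reads in either library. The part of these differences in the results below was not tested. In whole tissue, fewer cells of a type and less RNA per cell cannot be told apart.

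**Figure D1:**
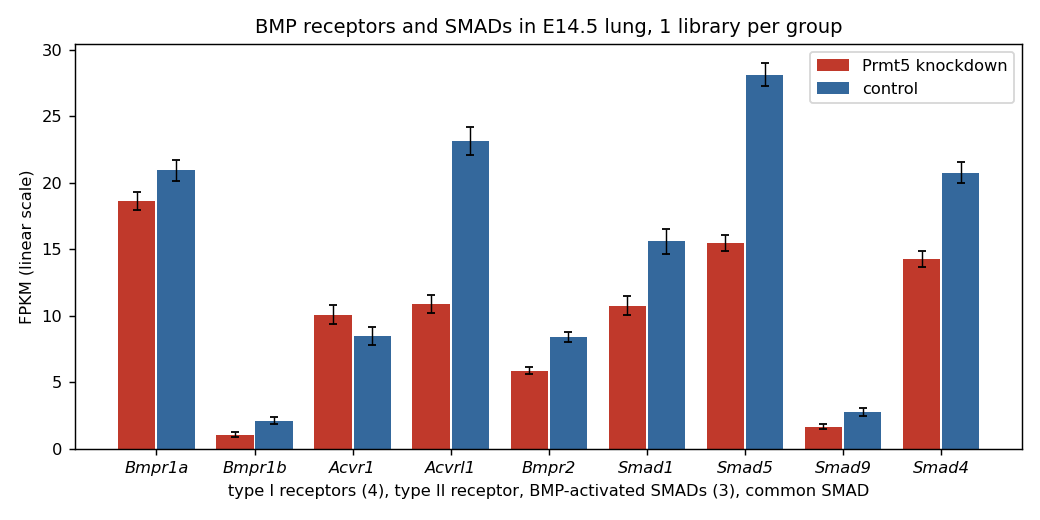
Level of each gene in FPKM (fragments scaled to gene length and to the library total, linear scale) in the Prmt5 knockdown library (red, left) and the control library (blue, right), with exact Poisson 95% intervals that cover counting error only. Smad5 and Acvrl1 were the highest of the 9 in the control library, and Bmpr1a was the highest in the knockdown library.

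Promoter sequences of members past the rule are shown for reference, and no link between sequence and ratio was tested. RefSeq promoter windows on GRCm38.p6 were taken for 7 of the 9 members, and no window of Acvrl1 or Smad4 was examined. Of the members past the rule, Smad5, Smad9 and Bmpr1b have a window whose 250 bases before the start overlap no annotated GENCODE exon. These windows lie at chr13:56702760-56703009 on the plus strand for Smad5, at chr3:54755332-54755581 on the plus strand for Smad9 and at chr3:141982265-141982514 on the minus strand for Bmpr1b. The Bmpr1b window precedes a start inside the longest Bmpr1b gene model. The Smad9 window runs past 54755455, where the Smad9 gene begins in RefSeq coordinates. Where several windows of a gene met this condition, the one listed first is shown. A second such Bmpr1b window lies at chr3:141931589-141931838. Capitals mark GGCGCC, a GC-rich SMAD element, and CAGAC with its reverse complement GTCTG, a SMAD half-site. The motifs do not overlap one another in these windows.

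Smad5: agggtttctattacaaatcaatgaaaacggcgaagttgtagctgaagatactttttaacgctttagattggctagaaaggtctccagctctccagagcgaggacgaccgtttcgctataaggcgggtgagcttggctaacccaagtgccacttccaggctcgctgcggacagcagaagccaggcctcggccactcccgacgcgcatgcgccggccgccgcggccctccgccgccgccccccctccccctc

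Smad9: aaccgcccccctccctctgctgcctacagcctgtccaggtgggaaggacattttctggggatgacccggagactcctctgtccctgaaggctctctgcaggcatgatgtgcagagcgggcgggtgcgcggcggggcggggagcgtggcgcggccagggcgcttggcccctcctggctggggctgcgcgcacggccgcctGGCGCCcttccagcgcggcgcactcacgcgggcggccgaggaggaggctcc

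Bmpr1b: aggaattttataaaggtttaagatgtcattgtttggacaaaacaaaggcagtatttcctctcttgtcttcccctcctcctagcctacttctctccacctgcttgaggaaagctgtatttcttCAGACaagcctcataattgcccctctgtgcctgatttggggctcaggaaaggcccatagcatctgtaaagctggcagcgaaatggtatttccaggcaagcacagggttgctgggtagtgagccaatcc

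The Smad9 window held 1 GGCGCC and no CAGAC, the Bmpr1b window 1 CAGAC and no GGCGCC, and the Smad5 window neither. The Smad9 GGCGCC lies past the RefSeq start of that gene at 54755455 but before its GENCODE start at 54755582. It is thus upstream of the GENCODE start only. The second Bmpr1b window also held 1 CAGAC and no GGCGCC, and a second Smad5 start, whose window overlaps a Smad5 exon, had 1 GGCGCC. Over all 32851 RefSeq windows of the same length, 9.59% held GGCGCC and 42.2% held CAGAC on either strand. The windows of Smad5 and Smad9 were rich in CpG pairs, with 22 and 24, whereas the Bmpr1b window shown held 1 and the second Bmpr1b window 5, beside a median of 6 over 27025 genes. The motifs and CpG counts thus depend on which annotated start is taken. Nor are they particular to the members past the rule. The windows taken for members not past it, all overlapping exons, held 46 (Acvr1), 36 (Bmpr1a), 25 (Smad1) and 22 (Bmpr2) CpG pairs. Those of Bmpr1a and Bmpr2 each held 1 GGCGCC, those of Acvr1 and Smad1 held none, and none of them held CAGAC.

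The type I receptors decide which SMADs a ligand activates, and they went different ways. Bmpr1a (chromosome 14, 34411061 to 34503336, NCBI number 12166), the broadly expressed receptor for BMP2 and BMP4, had 2679 reads in the knockdown and 2633 in the control library. Its level was 18.6 FPKM in the knockdown and 20.9 FPKM in the control library. The log2 ratio was -0.06 with an interval of -0.14 to 0.02. Whether the interval included 0 depended on the scaling. It included 0 with DESeq2 size factors (-0.11 to 0.05). It lay below 0 with total counts (log2 ratio -0.17, interval -0.25 to -0.09) and with upper quartile factors (-0.12, interval -0.20 to -0.04). The same held for totals without genes nearly silent in the control library (-0.14, interval -0.22 to -0.06).

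Bmpr1b (chromosome 3, 141837135 to 142169585, NCBI number 12167), the close relative of Bmpr1a that is best known from cartilage, had 148 reads in the knockdown and 256 in the control library, or 1.07 and 2.11 FPKM. It was the least abundant of the 9 genes in both libraries. It was 1.83-fold lower in the knockdown library (log2 ratio -0.87, interval -1.18 to -0.58). Among 8 measured cartilage markers 2 were higher and 1 lower (median -0.11, summed levels 54.4 FPKM in the knockdown and 64.6 FPKM in the control library), and Matn1, with 4 knockdown reads, was at 0 in the control library. Col2a1 and Col9a2, the cartilage markers with the most control reads, had log2 ratios of -0.45 and 0.13.

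Acvr1 (chromosome 2, 58446438 to 58566828, NCBI number 11477), the type I receptor also known as ALK2 that responds to BMP6 and BMP7, had 798 reads in the knockdown and 584 in the control library. Its level was 10.1 FPKM in the knockdown and 8.45 FPKM in the control library. It was the one member with a ratio above 1, at 1.29-fold (log2 0.37, interval 0.21 to 0.52), which did not reach the rule's 1.5. The interval lay above 0, and the log2 ratio stayed between 0.23 and 0.39 in every setting tried.

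Acvrl1 (chromosome 15, 101128522 to 101145336, NCBI number 11482), the endothelial receptor also known as ALK1, had 1018 reads in the knockdown and 1893 in the control library. Its level was 10.9 FPKM in the knockdown and 23.1 FPKM in the control library, so that it was the second most abundant of the 9 in the control and the fourth in the knockdown library. At 1.97-fold lower (log2 ratio -0.98, interval -1.09 to -0.87) it had the lowest ratio of the 9 members. Acvrl1 and Acvr1 moved apart within the libraries, a comparison that needs no scaling between them. The Acvr1 level per Acvrl1 level was 0.929 in the knockdown and 0.366 in the control library, a 2.54-fold change (log2 1.35, interval 1.15 to 1.54).

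**Figure D2:**
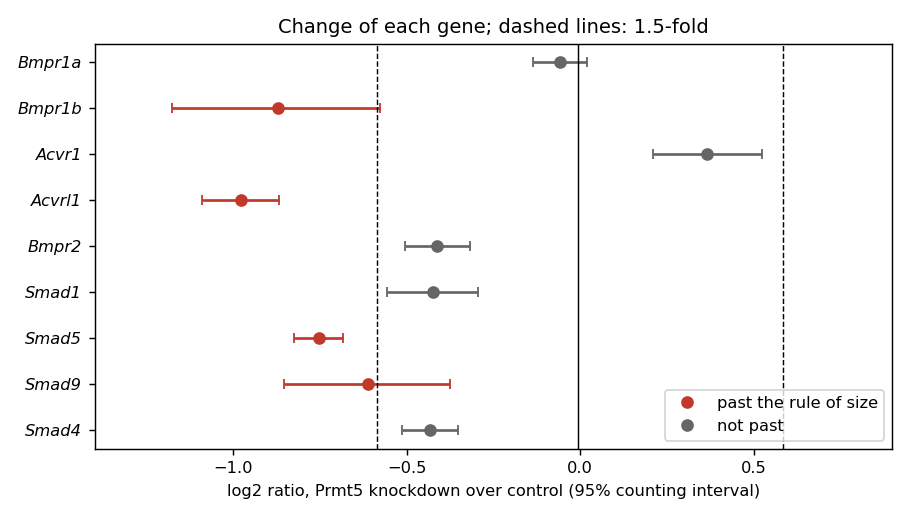
Log2 ratio of Prmt5 knockdown over control for each member with its exact 95% counting interval. Red points passed the rule of size, dashed lines mark 1.5-fold and the solid line the median of all measured genes, -0.01. Acvrl1 (-0.98), Bmpr1b (-0.87), Smad5 (-0.75) and Smad9 (-0.61) lie left of the dashed line and Acvr1 (0.37) right of the median.

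The mix of type I receptor transcripts differed between the libraries. Acvrl1 made up 26.7% of the summed FPKM of the 4 type I receptors in the knockdown and 42.3% in the control library, and Acvr1 24.8% and 15.5%. Bmpr1a accounted for 45.8% in the knockdown and 38.3% in the control library, and Bmpr1b for 2.63% and 3.87%. The summed level of the 4 was 40.7 FPKM in the knockdown and 54.6 FPKM in the control library. Acvrl1 was thus the largest type I share in the control library and Bmpr1a in the knockdown library.

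Since Acvrl1 is an endothelial gene, it was set beside 17 endothelium markers. Of these, 6 were lower and 1 higher past the rule, with a median log2 ratio of -0.50, single values from -1.47 to 0.92 and summed levels of 427 FPKM in the knockdown and 655 FPKM in the control library. No endothelium marker was at 0 reads. Cdh5 and Tie1, an adhesion protein and a receptor of endothelial cells and the markers with the most control reads, had log2 ratios of -0.61 and -0.53. Within the libraries, Acvrl1 was lower in the knockdown library relative to 15 of the 17 markers, with intervals below 0, and higher relative to Robo4 and Sox17 (median log2 change -0.48). Eng, the endothelial co-receptor of Acvrl1, named here after its value was seen, had 4024 reads in the knockdown and 3564 in the control library (log2 ratio 0.09, interval 0.03 to 0.16). The Acvrl1 level per Eng level was 0.243 in the knockdown and 0.509 in the control library, a log2 change of -1.07 (-1.20 to -0.94).

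**Figure D3:**
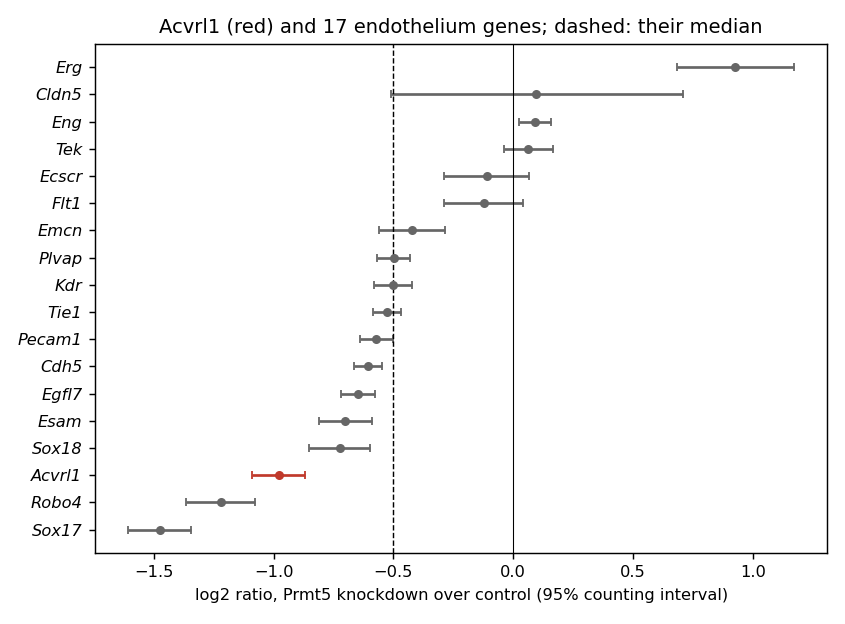
Log2 ratio of Prmt5 knockdown over control with exact 95% counting intervals for Acvrl1 (red) and the 17 endothelium markers (grey), with their median of -0.50 as a dashed line. Acvrl1 at -0.98 lies below all of these markers except Robo4 and Sox17.

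Bmpr2 (chromosome 1, 59764279 to 59878081, NCBI number 12168), the type II kinase that most BMPs use, had 1646 reads in the knockdown and 2066 in the control library. Its level was 5.87 FPKM in the knockdown and 8.43 FPKM in the control library, and the log2 ratio of -0.41 (interval -0.51 to -0.32) did not pass the rule. The other type II receptors that BMPs can use are the activin receptors Acvr2a and Acvr2b. Acvr2b passed as lower, with 598 reads in the knockdown and 974 in the control library (log2 ratio -0.79, interval -0.94 to -0.64). Acvr2a, with 553 and 694 reads, had a log2 ratio of -0.41.

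Of the SMADs that BMP receptors phosphorylate, Smad5 was the most abundant in both libraries and had the lowest ratio. Smad5 (chromosome 13, 56703010 to 56742378, NCBI number 17129) had 2627 reads in the knockdown and 4180 in the control library, or 15.5 and 28.1 FPKM. It was 1.69-fold lower in the knockdown library (log2 ratio -0.75, interval -0.83 to -0.68). Smad9 (chromosome 3, 54755455 to 54801662, NCBI number 55994), a less active relative, had 248 reads in the knockdown and 358 in the control library, or 1.67 and 2.76 FPKM. It was 1.53-fold lower (log2 ratio -0.61, interval -0.85 to -0.38), just inside the rule, and was outside it with DESeq2 size factors and with FPKM at a pseudocount of 1.

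Smad1 (chromosome 8, 79338395 to 79399428, NCBI number 17125), which overlaps with Smad5 in function, had 847 reads in the knockdown and 1073 in the control library. Its level was 10.8 FPKM in the knockdown and 15.6 FPKM in the control library. The log2 ratio of -0.43 (interval -0.56 to -0.29) was below 0 by more than counting error but outside the rule. Within the libraries the Smad1 level per Smad5 level was 0.697 in the knockdown and 0.555 in the control library, a 1.26-fold change (log2 0.33, interval 0.18 to 0.48). Smad5 still made up 55.4% of the summed FPKM of the 3 BMP-activated SMADs in the knockdown and 60.5% in the control library, and the sum was 27.9 FPKM in the knockdown and 46.5 FPKM in the control library. The share of Smad1 was 38.6% in the knockdown and 33.6% in the control library with the authors' gene lengths, and 25.3% and 21.4% with GENCODE exon lengths.

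**Figure D4:**
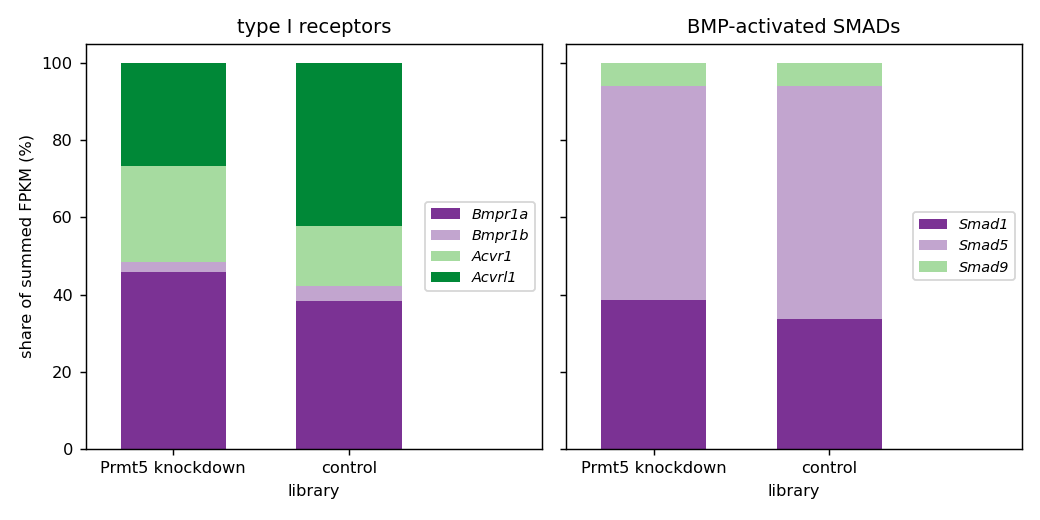
Share of the summed FPKM held by each type I receptor (left panel) and each BMP-activated SMAD (right panel) in the Prmt5 knockdown and control libraries. Acvrl1 held 26.7% of the type I sum in the knockdown and 42.3% in the control library, whereas Smad5 held 55.4% and 60.5% of its sum.

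Smad4 (chromosome 18, 73634790 to 73703791, NCBI number 17128), the partner shared by BMP and TGF-beta signalling, had 2273 reads in the knockdown and 2896 in the control library, or 14.3 and 20.8 FPKM. Its log2 ratio of -0.43 (interval -0.51 to -0.35) did not pass the rule. Smad4, Smad1 and Bmpr2 differed from one another within the libraries by no more than counting error, with log2 changes of 0.01 for Smad1 over Smad4 (interval -0.15 to 0.16) and 0.02 for Bmpr2 over Smad4 (interval -0.10 to 0.15). Of the 36 pairs of members, 26 had a within-library change whose interval excluded 0. The pairs reuse the same counts and are not independent of one another. No such share was determined for pairs of other measured genes, so the 26 of 36 cannot be called particular to the members.

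By level per length the control library ran from Smad5 through Acvrl1, Bmpr1a, Smad4, Smad1, Acvr1, Bmpr2 and Smad9 to Bmpr1b. In that order Bmpr1a and Smad4, and Acvr1 and Bmpr2, had overlapping counting intervals. The knockdown library ran from Bmpr1a through Smad5, Smad4, Acvrl1, Smad1, Acvr1, Bmpr2 and Smad9 to Bmpr1b, with overlapping intervals of Acvrl1 with Smad1 and of Smad1 with Acvr1. The order depends on the gene length the authors used. Against the union of annotated GENCODE exons that length was 1.66 times as long for Smad4 and 0.486 times for Smad1, and with GENCODE lengths Smad4 had the highest level of the 9 in both libraries. Ratios between libraries are free of gene length.

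Across the wider pathway, 63 further measured genes in 5 lists gave 12 higher and 18 lower past the rule, with a median log2 ratio of -0.20. Among 11 measured receptors and co-receptors of the TGF-beta superfamily 1 was higher and 3 were lower (median -0.04). The BMP co-receptor Rgma (759 reads in the knockdown and 1319 in the control library, log2 ratio -0.88) and the guidance receptor Neo1 (-0.59) were lower beside Acvr2b. Hjv, the BMP co-receptor of liver and skeletal muscle, had 489 reads in the knockdown and 16 in the control library (log2 ratio 4.81, interval 4.14 to 5.67).

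Among 20 genes that restrain or modify receptors and SMADs 2 were higher and 4 lower (median -0.18). The inhibitory SMAD Smad7 (log2 ratio -0.64), the phosphatase Ctdspl (-0.71), the nuclear membrane protein Lemd3 (-0.60) and the ubiquitin ligase Trim33 (-0.63) were lower. The antiproliferative protein Tob1 (555 reads in the knockdown and 261 in the control library) and the deubiquitinase Usp15 (log2 ratio 0.62) were higher. Of 12 SMAD partners 5 were lower and 2 higher (median -0.56). The lower ones included Zeb2 (-1.08), which binds activated SMADs, the zinc finger cofactor Zfp423 (-0.78), the TGF-beta-activated Smad3 (-0.68) and the Hippo effector Yap1 (-0.61), and the higher ones were the acetyltransferase Kat2b (1.35) and Zeb1 (0.79).

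BMP-responsive genes did not share one direction. Of 10 measured target genes 3 were lower, Tbx3 (log2 ratio -1.61), Sox9 (-1.30, also an epithelium marker here) and Id4 (-0.88), and Msx1 (1.32, with 59 reads in the knockdown and 22 in the control library) was higher (median -0.08). Id1, Id2 and Id3, the classical BMP-induced genes, together with the feedback inhibitors Smad6 and Bambi, all named after their values were seen, had log2 ratios between -0.09 and -0.01 and did not pass the rule. Within the same families, Id4 (-0.88) and the inhibitory SMAD Smad7 (-0.64) did pass as lower.

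The ligands that feed these receptors gave the widest spread. Of 10 measured BMP-type ligands 6 were higher and 3 lower (median 0.88, also with Bmp10 set against a floor of 3 control reads). Both known high-affinity ligands of Acvrl1 were among the higher genes. Gdf2, which encodes BMP9 and is made mainly by liver, had 238 reads in the knockdown and 1 in the control library (log2 ratio 7.24, interval 5.32 to 13.12). Bmp10, made mainly by heart, had 204 reads in the knockdown and 0 in the control library. Set against a floor of 3 control reads it was at least 64.1-fold higher (log2 6.00), and the exact interval used for the other genes began at a log2 ratio of 5.69. These ligands were higher in the library that held more of all 10 liver and all 10 heart markers, led in control reads by Afp (log2 ratio 7.29) and Alb (7.72) and by Myl7 (3.72) and Myh6 (4.38). Bmp6 (1.65), Gdf6 (1.47), Bmp2 (0.92) and Bmp7 (0.83) were higher as well, and Bmp3 (-1.55), Bmp5 (-1.42) and Gdf11 (-0.84) lower.

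**Figure D5:**
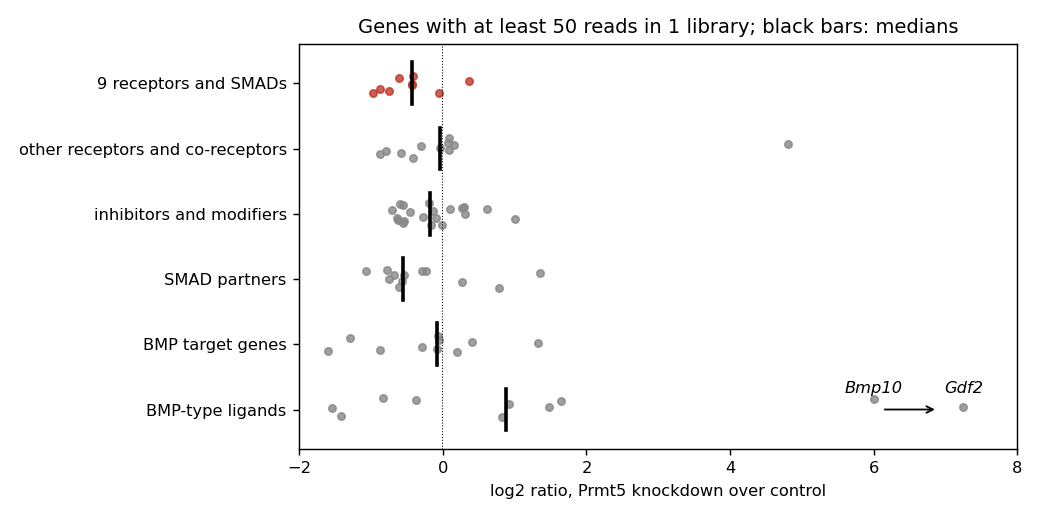
Log2 ratio of Prmt5 knockdown over control for the 9 receptors and SMADs (red) and 5 pathway lists (grey), each point a measured gene, with medians as black bars and the median of all genes as a dotted line. Bmp10, with 0 control reads, stands at its log2 ratio of 6.00 against a floor of 3 control reads, with an arrow, and the 9 members lie between -0.98 and 0.37.

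Markers of other cell types also differed between the libraries, some lower and some higher in the knockdown library. Of 16 measured epithelium markers 12 were lower and none higher (median -1.75, summed levels 351 FPKM in the knockdown and 1171 FPKM in the control library), with the lung lineage genes Nkx2-1 (-3.16) and Sftpc (-2.84) present in both libraries. Of 11 lung mesenchyme markers 7 were lower and none higher (median -0.80, summed levels 1398 and 1560 FPKM in the knockdown and control libraries), while the collagens Col1a1 (0.35) and Col3a1 (0.22), with the most control reads, did not pass. Of 13 nerve markers 12 were higher and none lower (median 1.65, summed levels 79.3 and 26.9 FPKM in the knockdown and control libraries), with Tubb3 at 1.89 and Stmn2 at 1.48. All 9 members had log2 ratios above the epithelium median and below the nerve median. From the lung mesenchyme median, Smad5 differed by 0.04, Bmpr1b by -0.07, Acvrl1 by -0.18 and Smad9 by 0.19. From the endothelium median, Smad4 differed by 0.07, Smad1 by 0.08, Bmpr2 by 0.09 and Smad9 by -0.11. Bmpr1a differed from the cartilage median by 0.05. Only small differences are listed so far, and others were larger. Acvrl1 differed from the endothelium median by -0.48, Bmpr1b from the cartilage median by -0.76 and Acvr1 from the lung mesenchyme median by 1.16. Single markers ran from -2.06 to 0.38 in lung mesenchyme, from -1.47 to 0.92 in endothelium and from -0.99 to 2.31 in cartilage. Nearness to a median therefore assigns no member to a cell type. The part of these cell types in the members' values was not tested.

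Likeness over 2 libraries is only nearness of the log2 ratio. The pathway genes nearest the members' median were Acvr2a (-0.41), the ubiquitin ligase Smurf2 (-0.46) and Bmp4 (-0.38). In the pathway and marker lists, Id4 (-0.88) and Rgma (-0.88) stood nearest to Bmpr1b, Elf3 (-0.98) and Hapln1 (-0.99) to Acvrl1, Runx2 (-0.76) and Tcf21 (-0.76) to Smad5, and Yap1 (-0.61) and Cdh5 (-0.61) to Smad9.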

How the data were processed

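Whole-lung polyadenylated RNA was sequenced in 1 Prmt5 knockdown and 1 control library. Tools named in the submitters' processing notes are HTSeq 0.6.1, TopHat2 2.0.12 and Bowtie2 2.2.3, with the build mm10. No source used here gives the annotation, the strand setting or how multi-mapping reads were treated. The authors deposited raw read counts per gene and FPKM values, and FPKM equalled count over length and library total. The implied lengths were whole within 0.001 bp in 100% of 22831 genes, so the FPKM adds only lengths to the counts.

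Gene numbers were matched to RefSeq symbols of GRCm38.p6 for 40269 entries. Counts were scaled with TMM factors of 0.963 (knockdown) and 1.04 (control) from edgeR 4.0.16 in R 4.3.3, with a prior count of 0.5. Intervals were exact Clopper-Pearson intervals of the 2 counts, and within-library changes had exact conditional intervals. Levels had exact Poisson intervals. All cover counting error only, since each group has 1 library. PCR copies are not independent molecules, so the intervals may be too narrow even for that. The rule of size was checked on simulated counts.

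Exons of Bmpr1a and Acvrl1 overlap those of antisense genes over 290 and 87 bases, so reads there are uncertain if strand was not used. Exons of Smad5 overlap those of a small RNA gene on the same strand over 100 bases, which strand cannot resolve. How many reads fall in these overlaps was not determined. Named genes were the members, up to 4 genes past the rule per pathway list and direction, the 2 markers per list with the most control reads, and the genes nearest in ratio. Bmp2 and Bmp7 were added to complete the higher ligands. Members and lists were chosen with earlier results of these data known. Alternatives covered scaling, prior count, FPKM, read minimum, ratio and interval, and the GENCODE lengths were added after seeing the data.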

Additional observations from a re-analysis of the deposited data

How the results depend on the processing

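No paired analysis was possible because each group has 1 library, and no library could be left out. The 9 members kept the direction of their log2 ratios in all 7 settings that can change a ratio (scaling, prior count and FPKM). The read minima, ratio bars and the 99% interval change only the calls. With scaling by total counts the median over all measured genes shifted by -0.11 (log2). The count of lower members stayed at 4 with it, while lower genes among all measured went from 1795 to 2436. The count of lower members was 3 with DESeq2 size factors and with FPKM at a pseudocount of 1, both without Smad9. In these 2 settings 1653 and 1686 of all measured genes were lower. A ratio of 2 in place of 1.5 left 0 members lower, 703 of all measured genes lower (1795 at 1.5) and 5 pathway genes lower (18 at 1.5). The lower bar of 0.32 on the log2 scale gave 7 members lower and 1 higher, with 3560 of all genes lower. A minimum of 200 reads gave 1956 higher genes in place of 3020. Higher genes made up 62.7% of all calls, 52.3% with total counts and 53.0% with FPKM at a pseudocount of 0.1, 55.8% at a pseudocount of 1. With GENCODE lengths Acvrl1 held 28.1% of the type I receptor sum in the knockdown and 43.4% in the control library, and Smad5 66.1% and 70.3% of its sum. Bmpr1b and Smad9, with 148 and 248 knockdown reads, have the widest counting intervals of the members.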
